A study of Mus musculus with 267 samples.

Results

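The loci of Cdh1 and Tgm2 were examined in mouse macrophages treated with interleukin-4 (IL-4). Members were all regions of the tag tables, and all factor peaks, whose centre lay within 50 kb of the start of either gene, a choice made by position alone. They came to 215 of 423610 table rows, 95 around Cdh1 and 120 around Tgm2, and to 445 and 461 factor peaks in 54 lists. Cdh1 (ENSMUSG00000000303.12) runs from 106603351 to 106670246 on the plus strand of chromosome 8, and Tgm2 (ENSMUSG00000037820.15) from 158116402 to 158146436 on the minus strand of chromosome 2 (mm10). Rows of different tables within 500 bp were treated as the same element, which gave 18 elements around Cdh1 and 23 around Tgm2. Elements carry the distance of their centre from the gene start in kb, negative upstream, so that Cdh1 +8.9 kb lies inside the gene.

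The cells were bone marrow-derived macrophages, differentiated for 7 days in M-CSF from female mice 8 to 12 weeks old per the study's methods. Basal cells received no IL-4, and treated cells received 20 ng/mL for 24 h. They came from the inbred strains SPRET/EiJ, PWK/PhJ, NOD/ShiLtJ, BALB/cJ and C57BL/6J, called SPRET, PWK, NOD, BALB and C57 here. C57 cells were also taken at 1 h and 6 h. A further experiment compared Egr2flfl cells, which carry loxP-flanked Egr2, with LyzMCreEgr2flfl cells, in which a Cre expressed from the lysozyme M gene of myeloid cells acts on the same allele. The extent of Egr2 deletion was not checked here, and Cre expression without a floxed allele was not analysed here. Chromatin immunoprecipitation with sequencing (ChIP-seq) was read for H3K27ac, found at promoters and enhancers in use, H3K4me2, H3K4me3, RNA polymerase II (Pol II), and the factors PU1, CEBPb, STAT6, EGR2 and PPARg. There were 2 libraries per group, except for 1 to 4 for Pol II. The labels call them biological replicates without tying them to animals, so p-values measure the spread between these libraries. The 155 libraries in the tables held 4691644 to 29050468 tags, so 1 tag, normalized to a total of 10000000 reads, stood for 0.469 to 2.91 reads.

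E-cadherin, the product of Cdh1, is a calcium-dependent adhesion protein that joins neighbouring cells and binds catenins in the cytoplasm. It is best known from epithelia, but macrophages activated by IL-4 also make it, and it has been linked to their fusion into giant cells. Tgm2 encodes tissue transglutaminase, an enzyme that crosslinks proteins and is widely used as a marker of IL-4-activated macrophages. IL-4 acts through STAT6, and EGR2 and PPARg are transcription factors that it induces, whereas PU1 and CEBPb are factors of the macrophage lineage.

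The sequences below are the peaks around which the results turn, in the mm10 reference on the plus strand, with letters in capitals where a motif was matched on either strand. The motifs were GNGTGGGNG for EGR, TTC and GAA separated by 4 bases for STAT6, GAGGAAGT for PU1, TTGCNNAA for CEBP, and AGGTCA repeated 1 base apart for PPAR. Cdh1 +8.9 kb is shown because it carried the strong H3K27ac of the gene, with 2 STAT6 matches and 1 PU1 match in its STAT6 peak. Cdh1 +3.4 kb and Cdh1 +21.6 kb are other EGR2 peaks of the same intron, the first without any match and the second with 1 EGR and 1 CEBP match. Cdh1 -43.3 kb, an intergenic peak, held 1 match each of EGR and CEBP. Tgm2 -32.4 kb is the only element of that locus with treated libraries above basal ones in all 5 strains, with 1 STAT6 and 1 CEBP match, and Tgm2 -28.2 kb is its most acetylated element, with 2 PU1 matches.
Cdh1 +8.9 kb STAT6 peak, chr8:106612133-106612378: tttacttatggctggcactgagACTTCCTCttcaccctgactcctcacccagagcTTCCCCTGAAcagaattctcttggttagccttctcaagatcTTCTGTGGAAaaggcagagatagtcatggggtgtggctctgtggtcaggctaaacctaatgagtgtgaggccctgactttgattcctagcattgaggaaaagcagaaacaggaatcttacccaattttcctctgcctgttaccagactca
Cdh1 +3.4 kb EGR2 peak, chr8:106606698-106606925: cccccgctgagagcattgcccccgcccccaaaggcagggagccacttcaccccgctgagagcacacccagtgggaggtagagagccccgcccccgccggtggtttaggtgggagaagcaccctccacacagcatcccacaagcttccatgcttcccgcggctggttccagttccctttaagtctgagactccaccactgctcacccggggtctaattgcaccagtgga
Cdh1 +21.6 kb EGR2 peak, chr8:106624859-106625067: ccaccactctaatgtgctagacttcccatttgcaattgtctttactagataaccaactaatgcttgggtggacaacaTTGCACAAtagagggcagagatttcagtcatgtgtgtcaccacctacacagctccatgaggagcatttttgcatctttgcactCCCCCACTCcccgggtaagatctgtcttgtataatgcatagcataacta
Cdh1 -43.3 kb EGR2 peak, chr8:106559895-106560150: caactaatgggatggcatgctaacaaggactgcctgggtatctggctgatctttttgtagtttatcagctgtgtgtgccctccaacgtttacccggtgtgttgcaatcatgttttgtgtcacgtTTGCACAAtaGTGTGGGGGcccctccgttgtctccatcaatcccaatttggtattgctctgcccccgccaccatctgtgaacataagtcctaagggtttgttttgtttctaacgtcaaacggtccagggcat
Tgm2 -32.4 kb EGR2 peak, chr2:158178692-158178921: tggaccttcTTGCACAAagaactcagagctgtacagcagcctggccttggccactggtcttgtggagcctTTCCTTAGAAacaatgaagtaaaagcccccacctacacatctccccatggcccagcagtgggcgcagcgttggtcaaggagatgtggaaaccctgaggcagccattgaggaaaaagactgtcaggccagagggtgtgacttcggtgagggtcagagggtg
Tgm2 -28.2 kb PU1 peak, chr2:158174516-158174716: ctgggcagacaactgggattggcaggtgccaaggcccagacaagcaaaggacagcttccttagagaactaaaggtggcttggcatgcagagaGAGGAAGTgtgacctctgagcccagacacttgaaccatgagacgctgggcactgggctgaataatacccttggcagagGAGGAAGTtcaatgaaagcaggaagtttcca
Across the 38 elements with a 1000 bp histone region in the time course, an EGR match occurred in 12 (31.6%), a STAT6 match in 12 (31.6%), a PU1 match in 5 (13.2%), a CEBP match in 15 (39.5%) and a PPAR match in 0. Of the 67742 regions of the C57 table, 33.7%, 22.6%, 13.7%, 35.6% and 0.221% held these matches. The letters are those of the reference, and strain variants were not read.

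The 2 most acetylated Cdh1 elements lay in its intron 2 of 15, which holds the elements from +5.1 kb to +44.2 kb. Over the 20 strain libraries, Cdh1 +7.9 kb had a median of 87.8 normalized H3K27ac tags (19.6 to 438.2) and Cdh1 +8.9 kb a median of 105.1 (16.4 to 432.9). The ranges of these neighbours overlapped. Of the others, upstream Cdh1 -39.6 kb had a median of 28.6, -26.0 kb of 22.9 and -47.0 kb of 22.4, while intronic +16.5 kb, with a region in 12 libraries, had a median of 20.5 and a higher mean that rested on SPRET. Upstream, the elements from -43.2 kb to -17.5 kb are intergenic, and -47.0 kb lies in the 3′ UTR of Cdh3, the neighbouring cadherin gene. No strain table held a region at the Cdh1 start itself. At Tgm2 the order was different. Intergenic Tgm2 -28.2 kb had the highest mean with a median of 134.4 (60.7 to 383.2), followed by +13.2 kb in intron 4 of 12 with 105.4 (49.5 to 192.5), and these ranges overlapped too. In the C57 time course the elements most like Cdh1 +7.9 kb, by Pearson's r over 8 libraries that the elements share with their depth and scaling, were Cdh1 +8.9 kb (0.989), +21.6 kb (0.891) and +23.3 kb (0.883). For Tgm2 -28.2 kb they were Tgm2 -29.2 kb (0.980), -27.6 kb (0.978) and -20.4 kb (0.829).

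The strain comparison asked how H3K27ac at these elements differed between basal cells and cells after 24 h of IL-4. At Cdh1 +7.9 kb the C57 libraries held 26.5 and 49.9 tags at basal and 89.1 and 164.7 at 24 h. The BALB libraries went from 33.8 and 29.2 to 122.0 and 73.8. In NOD the values were 86.4 and 81.0 at basal, and 277.0 and 202.1 at 24 h. All 3 strains kept treated and basal libraries apart, as did the other two. PWK had 29.2 and 19.6 at basal against 103.7 and 73.5. SPRET differed in its starting level, with 283.8 and 333.9 at basal and 438.2 and 373.7 at 24 h, so that its basal libraries lay above every basal library of the other strains. In bulk chromatin, more cells with a mark and more of it per cell cannot be told apart. Each strain had its own regions and its own fit, so levels between strains are set side by side without a test.

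Cdh1 +8.9 kb gave the same picture. Its PWK libraries were at 22.3 and 16.4 at basal and 108.4 and 110.7 at 24 h, a log2 difference of 2.45 ± 0.48 (SE; limma, Benjamini-Hochberg adjusted p = 0.0316). The call was lost without either 24 h library (adjusted p of 0.556 and 0.935) and with median-ratio scaling (0.0647). SPRET was again high at the start, with 229.1 and 300.3 at basal and 432.9 and 325.2 at 24 h. The distal intronic element Cdh1 +16.5 kb shared this contrast. It had 68.4 and 116.5 tags at basal in SPRET, but 3.39 and 7.8 in C57 and 7.5 and 4.8 in NOD. At 24 h it held 145.5 and 147.5 in SPRET, 11.9 and 22.97 in C57, and 26.04 and 18.01 in NOD, and limma called none of these differences.

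Cdh1 +21.6 kb was close to empty in basal cells. BALB libraries held 1.47 and 4.17 tags at basal and 20.3 and 31.9 at 24 h, a log2 difference of 2.89 ± 0.58 (limma, adjusted p = 0.00014). Without the second 24 h library the adjusted p was 0.0766. C57 libraries went from 2.7 and 3.6 to 13.6 and 77.4, and NOD libraries from 0.83 and 4.8 to 29.6 and 71.5, neither of them called. PWK and SPRET had no region there, although factor peaks were listed at this position in both.

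**Figure D1:**
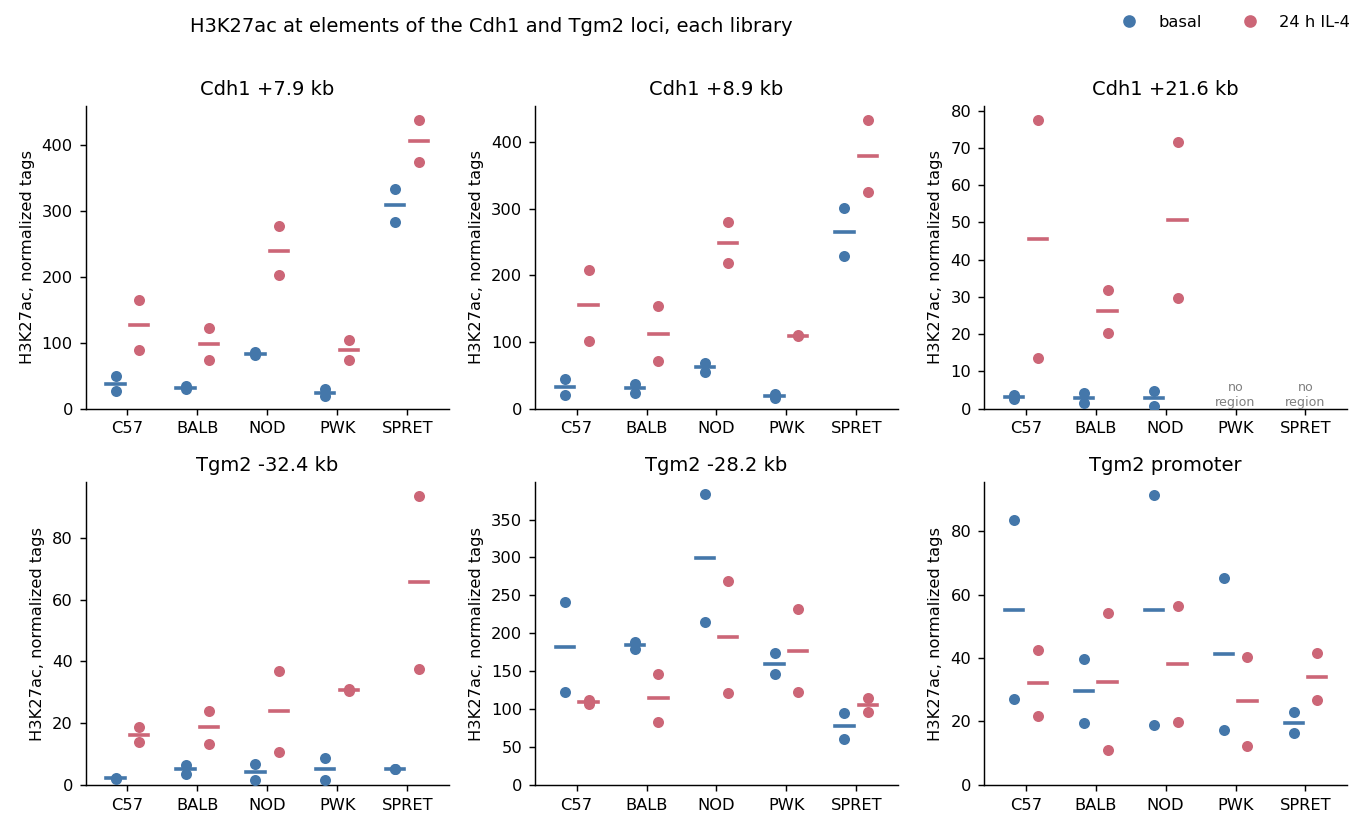
H3K27ac in normalized tags (vertical axis) for each library of 5 strains (horizontal axis) at 3 Cdh1 and 3 Tgm2 elements; blue points are basal and red points 24 h IL-4 libraries, and bars are group means of 2. Treated libraries lie above basal ones in every strain at Cdh1 +7.9 kb, Cdh1 +8.9 kb and Tgm2 -32.4 kb, and SPRET starts from 283.8 and 333.9 tags at Cdh1 +7.9 kb.

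Counted without a test over every Cdh1 element with a region, treated H3K27ac libraries lay above basal ones with no overlap at 8 of 13 elements in C57, 9 of 11 in BALB, 9 of 13 in NOD, 8 of 11 in PWK and 6 of 11 in SPRET. The same held for 18.8% of all regions in C57, 13% in BALB, 16.6% in NOD, 14.6% in PWK and 18.2% in SPRET. No Cdh1 element was lower at 24 h without overlap in any strain. Elements above basal in 5 of 5 strains were -42.0 kb, -26.0 kb, +7.9 kb and +8.9 kb. They were joined by -47.0 kb in 4 of 5, by +5.1 kb in each of 4 strains with a region, by +16.5 kb and +21.6 kb in each of 3, and by -27.4 kb and +23.3 kb in each of 2. Cdh1 -39.6 kb and -21.7 kb were separated in 1 of 5, and -17.5 kb, -28.9 kb, +30.7 kb and +44.2 kb in 0.

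By the fold rule (means plus 1 at least 2.5-fold apart, with at least 16 tags in either group), 6 of 13 Cdh1 regions were higher at 24 h in C57 against 3.46% of all regions, 3 of 11 in BALB against 2.84%, 7 of 13 in NOD against 3.24%, 6 of 11 in PWK against 3.1%, and 1 of 11 in SPRET against 2.64%. The SPRET region was -47.0 kb. No Cdh1 region was lower by this rule. The median log2 difference of the Cdh1 regions was 1.496 in C57, 1.04 in BALB, 1.49 in NOD, 1.67 in PWK and 0.44 in SPRET, where the median of all regions was -0.28, -0.30, -0.20, -0.18 and -0.09. At Tgm2 the medians were -0.09, -0.05, -0.04, 0.19 and 0.77. There 1 region in each of C57, BALB, NOD and PWK was past the rule, of 23, 17, 16 and 13, and 4 of 14 were in SPRET.

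Few of these differences passed limma with 2 libraries a group. In C57 it called 0 of 13 Cdh1 and 0 of 23 Tgm2 regions (6 and 1 at an unadjusted p under 0.05), with 0% of all regions called. The edgeR count test also called 0 there, and DESeq2 called 4 Cdh1 regions. In BALB 1 Cdh1 region was called, against 1.6% of all regions. In NOD the counts were again 0 (7 of 13 and 1 of 16 at an unadjusted p under 0.05; edgeR 0, DESeq2 4 at Cdh1), against 0.0566%. PWK gave 1 Cdh1 region against 0.487%, and SPRET 2 Tgm2 regions against 0.994%. Each share is that of limma. None is given for the unadjusted p, edgeR or DESeq2, so those counts have no background beside them. These fits left out the replicate number, although deviations of same-numbered histone libraries correlated by 0.2 to 0.717. With the number as a block more regions of these loci were called, as given in the closing section.

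**Figure D2:**
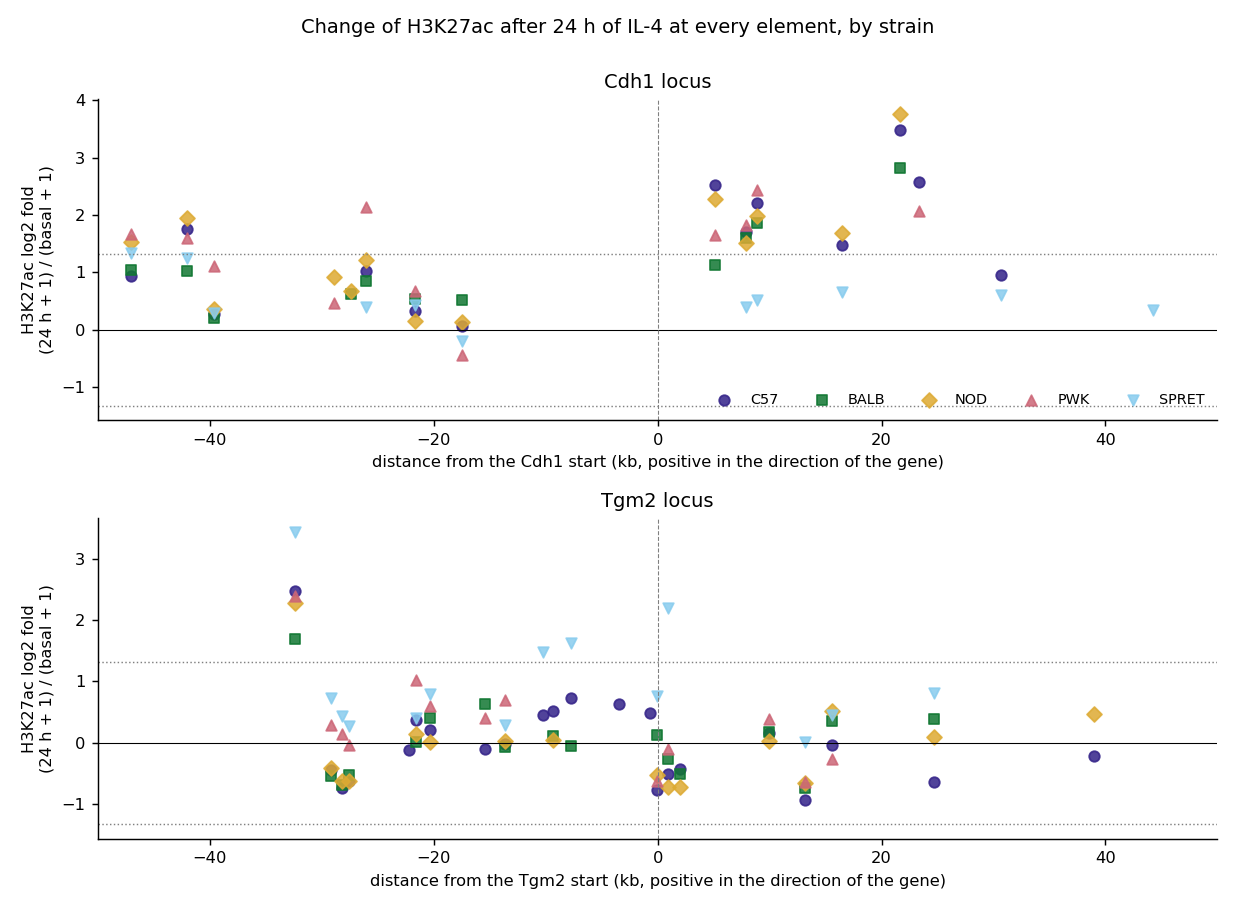
H3K27ac log2 fold (24 h plus 1 over basal plus 1, vertical axis) against distance from the gene start in kb (horizontal axis) for each element and strain; dotted lines mark 2.5-fold either way. Cdh1 +7.9 kb and +8.9 kb lie above the upper line in C57, BALB, NOD and PWK and below it in SPRET, while at Tgm2 the element at -32.4 kb is above it in all 5 strains.

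Around Tgm2, treated H3K27ac libraries lay above basal ones with no overlap at 7 of 23 regions in C57, 3 of 17 in BALB, 2 of 16 in NOD, 4 of 13 in PWK and 9 of 14 in SPRET. The share of all regions was 18.8%, 13%, 16.6%, 14.6% and 18.2% in the same order, so BALB and NOD were near it. Tgm2 -21.6 kb was above basal in 3 of 5 strains, -20.4 kb in 2 of 5, -7.8 kb in 2 of 3 with a region and -10.3 kb in 2 of 2. Tgm2 -32.4 kb was the only element there above basal in 5 of 5 strains. C57 libraries held 2.0 and 2.1 tags at basal and 18.7 and 13.8 at 24 h, and BALB libraries 6.6 and 3.6 against 24.1 and 13.3. NOD went from 6.7 and 1.6 to 36.9 and 10.7, and PWK from 8.6 and 1.6 to 30.98 and 30.5. SPRET reached the highest level, from 5.1 and 5.3 at basal to 93.5 and 37.7 at 24 h, a log2 difference of 3.29 ± 0.51 (limma, adjusted p = 0.00357). This call was lost without either 24 h library (0.364 and 0.175) or without the first basal library (0.0855). In SPRET, Tgm2 +0.9 kb in intron 1 was also called, with 6.0 and 3.3 tags at basal and 24.7 and 24.8 at 24 h (2.23 ± 0.52, limma adjusted p = 0.049). It was lost without any 1 of the 4 libraries (adjusted p from 0.279 to 0.364). The other 2 regions past the fold rule in SPRET were Tgm2 -10.3 kb, at 14.5 and 15.2 against 45.8 and 40.9, and Tgm2 -7.8 kb, at 16.2 and 18.4 against 50.2 and 60.3.

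The Tgm2 promoter did not separate basal and treated cells outside SPRET. Its replicates were far apart, with 83.5 and 27.1 at basal and 42.4 and 21.7 at 24 h in C57, and 91.4 and 19.1 against 56.4 and 19.7 in NOD. In SPRET it held 16.2 and 23.1 at basal, and 41.4 and 26.9 at 24 h. Tgm2 +13.2 kb was lower at 24 h with no overlap in 4 of 5 strains, a separation that was common among all regions (34.8% in C57, 28.8% in BALB, 27.6% in NOD, 25.3% in PWK and 23.9% in SPRET). Its tags were, for example, 143.8 and 192.5 against 65.4 and 109.6 in C57, and limma called it in no strain (adjusted p from 0.233 to 0.785).

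Pol II, the enzyme that transcribes genes and is also found at active enhancers, was sparse at these elements. PWK Cdh1 +7.9 kb had 1.4, 1.4 and 2.3 tags in basal libraries and 8.6, 11.8 and 8.6 at 24 h (1.99 ± 0.47, limma adjusted p = 0.0476). In SPRET it held 22.2, 21.3 and 21.1 at basal and 49.9, 38.9 and 27.7 at 24 h. PWK Cdh1 -42.0 kb had 2.8, 1.4 and 0.8 at basal and 10.8, 15.1 and 11.1 at 24 h (2.38 ± 0.49, limma adjusted p = 0.0231). Cdh1 +5.1 kb, with a single basal read in PWK, was called too (adjusted p = 0.0389), a ratio of 20.3 with a 95% counting interval of 3.18 to 848.8. At Tgm2 -32.4 kb, PWK libraries held 1.4, 0.0 and 0.0 tags at basal and 8.6, 12.9 and 6.0 at 24 h (limma adjusted p = 0.0168), a ratio of 18.5 with an interval of 4.71 to 159.7. Leaving out 1 library removed these calls, those at Cdh1 +7.9 kb and +5.1 kb under each of 6 omissions (0.0877 to 0.248 for +7.9 kb, 0.0762 to 0.196 for +5.1 kb), and -42.0 kb and Tgm2 -32.4 kb under 4 of 6 (up to 0.183 and 0.162). Over every element, Pol II libraries at 24 h lay above all basal ones at 4 of 13 Cdh1 elements in C57, 4 of 11 in BALB, 5 of 13 in NOD, 5 of 11 in PWK and 1 of 11 in SPRET. Around Tgm2 this held at 1 of 23 regions, 5 of 17, 1 of 16, 2 of 13 and 4 of 14 in the same order, against 3.3%, 14.5%, 17.4%, 8.87% and 7.05% of all regions. Cdh1 +7.9 kb and Tgm2 -32.4 kb were so separated in 5 of 5 strains, Cdh1 +21.6 kb in each of 3 with a region, +5.1 kb in 3 of 4, -47.0 kb in 3 of 5 and -42.0 kb in 2 of 5, and each other element in at most 1. At the Tgm2 promoter, C57 libraries ran from 13.2 to 58.6 at basal and from 10.3 to 42.0 at 24 h, and the groups overlapped.

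In all, limma called 4 Pol II regions in PWK against 1.44% of all regions there. It called 0 in C57 (5 Cdh1 and 1 Tgm2 at an unadjusted p under 0.05; edgeR 0, DESeq2 0) against 0.223%, 0 in BALB (2 and 3; 0 and 0) against 0.663%, 0 in NOD (4 and 1; 0 and 0) against 0%, and 0 in SPRET (1 and 6; edgeR 1, DESeq2 1 at Tgm2) against 0.782%. These shares are those of limma, and none is given for the unadjusted p, edgeR or DESeq2. The replicate numbers paired the Pol II libraries of C57, PWK and SPRET, so the fit with the number as a block is given beside the limma counts. With the replicate block PWK had 6 called regions against 5.96%, Cdh1 -47.0 kb (2.05, adjusted p = 0.000475) and Tgm2 -20.4 kb (1.17, adjusted p = 0.038) being added. SPRET had 5 against 3.56%, all at Tgm2, at -32.4 kb (2.61, 0.0071), -7.8 kb (1.39, 0.039), the promoter (1.12, 0.0059), +0.9 kb (1.57, 0.026) and +24.7 kb (1.78, 0.029), each with its log2 difference and adjusted p. The promoter libraries there held 26.1, 31.98 and 11.3 tags at basal and 52.4, 75.6 and 26.8 at 24 h, so each numbered pair was higher at 24 h although the groups overlapped.

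H3K4me2, which marks enhancers whether or not they are acetylated, was present at the same elements before treatment. At Cdh1 +7.9 kb it was 26.95 and 37.3 at basal and 36.4 and 27.8 at 24 h in C57. Cdh1 +21.6 kb differed more, with 12.7 and 6.1 in NOD at basal and 33.2 and 41.9 at 24 h, the only H3K4me2 call in these loci (1.96 ± 0.42, limma adjusted p = 0.0067) against 0.167% of all regions. It was lost without either 24 h library (0.514 and 1.0), with median-ratio scaling (0.0868) and in DESeq2 (0.206). In C57 the same element held 4.9 and 9.8 against 27.9 and 24.9, and in BALB 5.6 and 14.4 against 38.1 and 24.1. H3K4me3, a promoter mark, was high at the Tgm2 promoter, with 193.6 and 186.3 at basal and 160.1 and 125.6 at 24 h in C57, and 78.1 and 79.3 against 108.7 and 110.5 in SPRET. At every Cdh1 region it stayed at or below 19.4 tags.

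The C57 time course showed when these elements changed. Its basal and 24 h H3K27ac and Pol II libraries are those of the C57 strain table, counted over slightly shifted regions, so the 24 h differences are not a second measurement. Cdh1 +7.9 kb held 29.9 and 57.04 tags at basal, 172.4 and 54.4 at 1 h, 222.6 and 194.7 at 6 h, and 97.6 and 185.7 at 24 h. It was called at 6 h (2.31 ± 0.63, limma adjusted p = 0.039), where both libraries lay above both basal ones, while the 1 h libraries overlapped the basal range. Cdh1 +8.9 kb held 21.03 and 44.2 at basal, 184.8 and 56.1 at 1 h, where both libraries were already above both basal ones, and 210.2 and 173.4 at 6 h, when it was called (2.60 ± 0.64, limma adjusted p = 0.0249). Cdh1 -42.0 kb was already called at 1 h, with 51.0 and 18.9 against 4.1 and 6.4 at basal (2.39 ± 0.64, limma adjusted p = 0.0304), and was at 55.5 and 20.7 at 6 h and 17.8 and 22.3 at 24 h.

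The Cdh1 promoter, which only this table holds, had 2.0 and 0.0 tags at basal, 9.3 and 9.3 at 1 h, 6.9 and 11.6 at 6 h, and 8.5 and 13.8 at 24 h. It rested on 3 basal reads, and the ratio at 24 h was 11.0013 with a 95% counting interval of 3.43 to 56.2. limma called it at 1, 6 and 24 h (adjusted p of 0.0271, 0.0337 and 0.043). Without the second basal library, which held no read there, the adjusted p was 0.231, 0.381 and 0.342. Its Pol II stood at 1.0 to 3.7 in 4 basal libraries and at 18.8 in the only 1 h library. Cdh1 -43.2 kb, also with 3 basal reads, was called at 1 h and 6 h (adjusted p of 0.042 and 0.0368). Cdh1 +21.6 kb held 2.7 and 3.6 at basal, 16.2 and 5.2 at 1 h, 20.8 and 45.0 at 6 h, and 13.6 and 73.5 at 24 h, and was called at 6 h and 24 h (limma adjusted p of 0.0284 and 0.0493). Cdh1 +23.3 kb was called at the same times, from 1.4 and 1.4 to 13.1 and 14.6 at 6 h and 10.2 and 16.4 at 24 h.

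**Figure D3:**
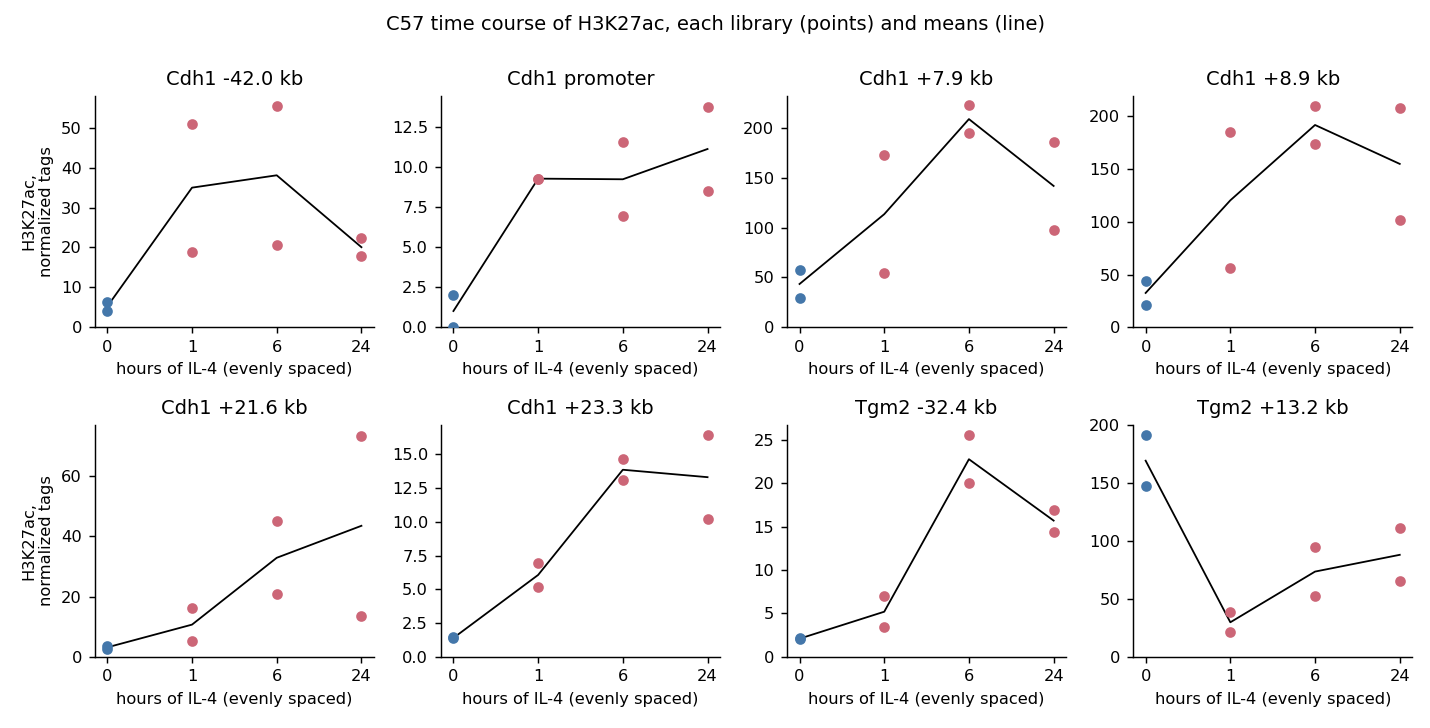
H3K27ac in normalized tags (vertical axes, each from 0) at hours of IL-4 (horizontal axis, evenly spaced) in C57 cells for 8 elements; points are libraries, blue at basal, and the line joins the means of 2. The Cdh1 elements are above basal at 6 h, and Tgm2 +13.2 kb falls from 147.2 and 191.8 at basal to 38.6 and 21 at 1 h.

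At Tgm2 the same table held a rise and a fall. Tgm2 -32.4 kb stood at 2.0 and 2.1 at basal, 7.0 and 3.4 at 1 h, 20.0 and 25.6 at 6 h and 16.98 and 14.4 at 24 h, and was called at 6 h (2.94 ± 0.60, limma adjusted p = 0.00915) and 24 h (2.43 ± 0.60, adjusted p = 0.0476). Its Pol II was called at 6 h, with 12.6 and 7.8 against 0.0 to 1.2 at basal (limma adjusted p = 0.0386, against 0.428% of all regions). That call was lost without basal library 2, 3 or 4 or either 6 h library (0.0629 to 0.482). Tgm2 +13.2 kb fell at 1 h by 2.52 ± 0.57 on the log2 scale (limma adjusted p = 0.0184), and stood at 52.4 and 94.9 at 6 h and at 65.4 and 110.9 at 24 h. Tgm2 +2.0 kb fell as well, from 40.7 and 18.5 to 7.0 and 5.5 at 1 h (-1.99 ± 0.58, adjusted p = 0.0406). The median of all regions at 1 h was -0.63, and with median-ratio scaling, which brings it to 0.09, both adjusted p-values passed 0.05 (0.0615 and 0.193).

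Of 15 Cdh1 regions, 3 were called higher at 1 h against 1.37% of all regions, 7 at 6 h against 2.67% and 3 at 24 h against 1.13%. Of 23 Tgm2 regions, 0, 1 and 1 were called higher, and 2 lower at 1 h against 8.36%. By the fold rule 3, 5 and 7 Cdh1 regions were higher at 1, 6 and 24 h against 2.31%, 5.59% and 3.77%, and 4 Tgm2 regions were lower at 1 h against 20.6%, a share of the locus near the background. These calls lean on single libraries. Of the 5 calls at 1 h 0 held without the second basal library and 1 without either 6 h library, of the 8 higher calls at 6 h 0 held without either 6 h library, and of the 4 at 24 h 0 held without the second basal, the second 24 h or either 6 h library.

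The factor peaks showed which proteins had been found at these elements. Peaks of at least 1 list formed 31 sites around Cdh1 and 40 around Tgm2. Cdh1 +8.9 kb was in 45 of 54 lists. CEBPb, PPARg and STAT6 had a peak there in all 5 strains, basal and treated, and PU1 in all 5 basal lists and in 4 at 24 h, while EGR2 was listed there in no basal list and at 24 h in BALB, C57 and SPRET. Cdh1 +8.1 kb, the peak within the +7.9 kb element, was in 40 lists and Cdh1 -47.1 kb in 40. Cdh1 +21.6 kb, in 34 lists, had EGR2 peaks in 4 strains at basal and 5 at 24 h, and PPARg only at 24 h, in C57 and NOD. Cdh1 +3.4 kb was listed for CEBPb only at 24 h, in BALB, C57, PWK and SPRET. Cdh1 +16.5 kb had basal peaks in SPRET alone, for PPARg and PU1. The same held at +30.6 kb, and the basal SPRET list was the longest basal list of either factor, with 19684 PPARg and 101317 PU1 peaks. At the Cdh1 start itself only PU1 in SPRET and, at +0.3 kb, EGR2 in BALB were listed.

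At Tgm2, -29.2 kb was in 48 lists and +13.2 kb in 46. The acetylated Tgm2 -28.2 kb was in 30, for PU1, PPARg and STAT6. Tgm2 -32.4 kb differed from them. CEBPb was listed there at 24 h in all 5 strains and in no basal list, STAT6 at 24 h in BALB, NOD, PWK and SPRET, and EGR2 at 24 h in C57, PWK and SPRET and at basal in C57. A neighbouring site at -32.7 kb, within the same element but merged apart, was listed for EGR2 in BALB and NOD, basal and treated. Over whole loci, sites listed at 24 h and in no basal list of the same factor numbered 8 of 17 for CEBPb, 7 of 16 for EGR2, 6 of 13 for PPARg, 7 of 17 for STAT6 and 3 of 23 for PU1 around Cdh1. Around Tgm2 they numbered 4 of 14, 10 of 20, 8 of 18, 2 of 14 and 4 of 25. Over all sites of each factor in the genome, the share was 33.5% for CEBPb, 41.9% for EGR2, 60.1% for PPARg, 34.5% for STAT6 and 9.71% for PU1. A deeper or better enriched library gives a longer list, so a peak missing from a list is not a measured absence.

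**Figure D4:**
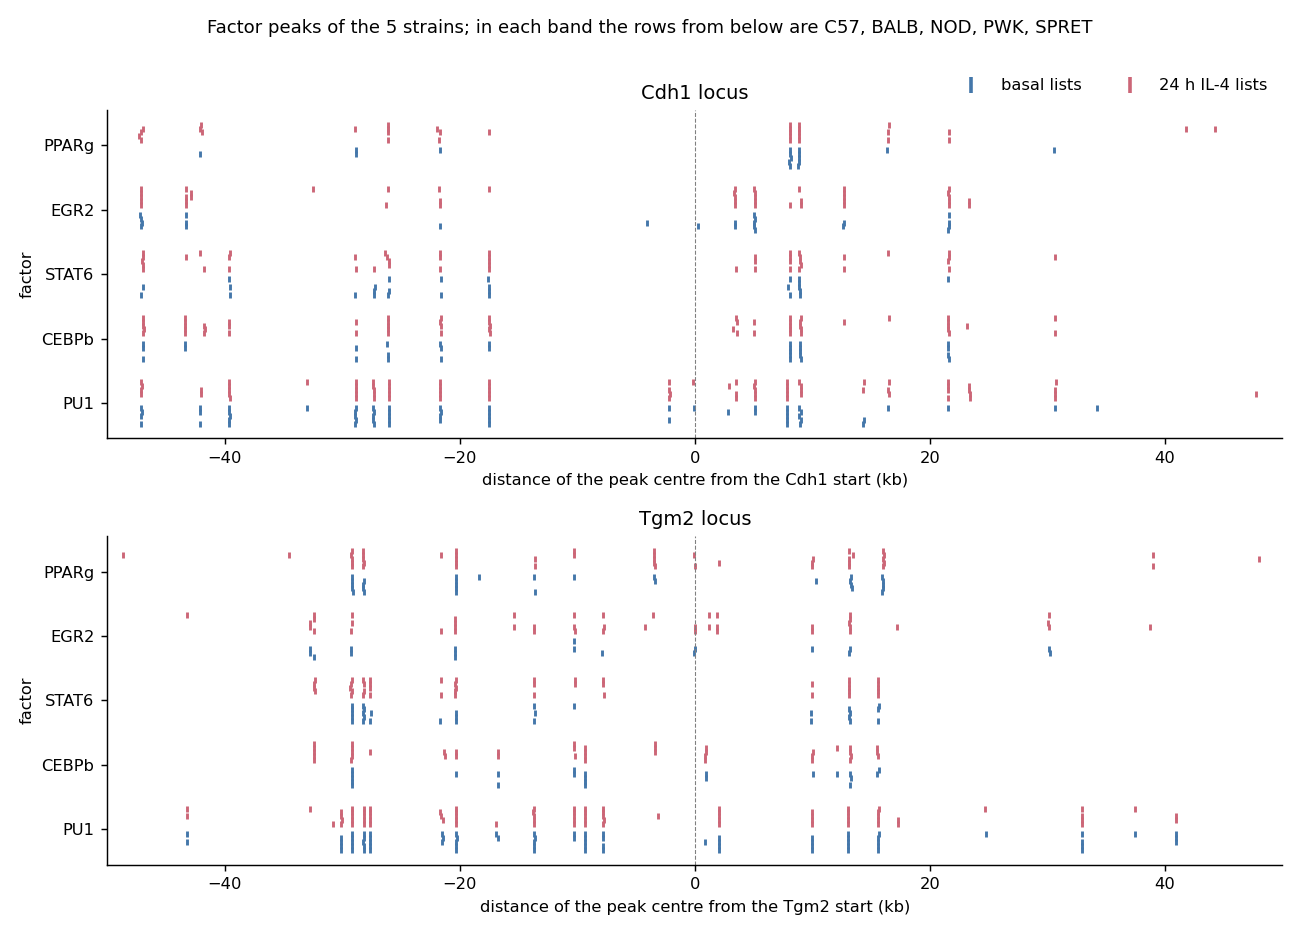
Factor peaks by distance of the peak centre from the gene start in kb (horizontal axis) for 5 factors (vertical axis); blue ticks are basal and red ticks 24 h lists, and rows within a band are strains. Peaks of several factors and strains stack at Cdh1 +8.1 and +8.9 kb, and at Tgm2 -32.4 kb the CEBPb and STAT6 ticks are red only.

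EGR2 tags over time in C57 were counted at 11 Cdh1 and 12 Tgm2 sites. At Cdh1 +9.0 kb they were 13.6 and 24.2 at basal, 16.3 and 92.6 at 1 h, 26.2 and 137.5 at 6 h, and 66.9 and 140.2 at 24 h. Tgm2 -32.4 kb held 20.6 and 45.7 at basal, 6.3 and 72.3 at 1 h, 22.7 and 167.6 at 6 h, and 199.3 and 120.0 at 24 h. The 24 h libraries lay above the basal ones at both, but the replicates of 1 h and 6 h were far apart. limma called 0 sites at 1, 6 and 24 h, as it did over all 30675 sites (0%, 0% and 0%). At an unadjusted p under 0.05 the 24 h difference held at Cdh1 -26.2 kb, +3.4 kb and +9.0 kb and at Tgm2 -32.4 kb, with adjusted p = 0.838 for each, and edgeR and DESeq2 called 0 as well.

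The Egr2 experiment asked what remained of the response where Egr2 was deleted in the myeloid lineage. Its tables hold 4677 sites that the study chose as EGR2 peaks gained with IL-4, 5 of them at Cdh1 and 1 at Tgm2, so a response at them in Egr2flfl cells was partly chosen. At Cdh1 +9.0 kb H3K27ac stood at 69.0 and 72.6 in basal and 277.4 and 270.4 in treated Egr2flfl cells, and at 61.2 and 60.5 in basal and 167.3 and 167.2 in treated LyzMCreEgr2flfl cells. It rose with IL-4 in both genotypes, by 1.94 ± 0.20 (limma adjusted p = 5.41e-06) and by 1.44 ± 0.20 (7.35e-05). Treated LyzMCreEgr2flfl cells were lower than treated Egr2flfl cells (-0.71 ± 0.20, adjusted p = 0.0181). The difference between the IL-4 effects, tested as an interaction, was -0.49 ± 0.28 (adjusted p = 0.489).

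Cdh1 +3.4 kb held 4.3 and 4.8 in basal and 14.1 and 9.0 in treated Egr2flfl cells, against 0.0 and 0.0, and 2.1 and 2.3, in LyzMCreEgr2flfl cells. At 24 h the genotypes differed by -1.94 ± 0.57 (limma adjusted p = 0.0222). They were already apart at basal, so this difference does not measure a change in the response to IL-4. limma did not call the interaction at this site. The LyzMCreEgr2flfl groups rested on 0 reads at basal and 6 at 24 h. At Cdh1 +23.3 kb treated cells held 34.2 and 14.1 in Egr2flfl and 2.1 and 5.8 in LyzMCreEgr2flfl (-2.33 ± 0.73, limma adjusted p = 0.0293), with an interaction of -2.56 ± 1.04 (adjusted p = 0.294). Cdh1 -26.2 kb did not share this, with 76.4 and 64.2 against 71.7 and 61.5 in treated cells (-0.08 ± 0.28, adjusted p = 0.872), and rose with IL-4 by 1.81 ± 0.28 in Egr2flfl and 2.24 ± 0.28 in LyzMCreEgr2flfl cells (limma adjusted p of 0.000204 and 2.7e-05). Cdh1 -43.3 kb rose in Egr2flfl cells, from 3.4 and 2.0 to 28.1 and 19.9 (2.75 ± 0.70, limma adjusted p = 0.00769). In LyzMCreEgr2flfl cells it held 4.0 and 0.0 at basal and 4.2 and 11.6 at 24 h. There limma called neither the IL-4 effect nor the genotype difference at 24 h. Tgm2 -10.2 kb held 6.0 and 6.8, then 3.0 and 5.1, in Egr2flfl cells and was called in no contrast.

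Lower H3K27ac at 24 h was thus called at 3 of 6 sites against 23.2% of all sites, and the median over all 4677 was -0.50. With median-ratio scaling, which brings that median to -0.03, none of the 3 was called (adjusted p of 0.554, 0.0797 and 0.0944 for +9.0, +3.4 and +23.3 kb), nor in DESeq2 (0.683, 0.283 and 0.134). Over all sites that scaling changed the calls from 66 higher and 1087 lower to 537 and 498. Without 1 treated Egr2flfl library or the first treated LyzMCreEgr2flfl library 0 of the 3 calls held, and without the second 1 did. The IL-4 calls numbered 4 in Egr2flfl cells against 25.6%, and 2 in LyzMCreEgr2flfl cells against 14.4%. Those at +9.0 kb and -26.2 kb held in both genotypes under every alternative run. Those at -43.3 kb and +23.3 kb were lost without the first treated Egr2flfl library (0.0955 and 0.202), and the latter also without the second basal one (0.236).

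STAT6, the factor that IL-4 activates directly, had 22.7 and 8.4 tags at Cdh1 +9.0 kb in basal and 125.7 and 78.8 in treated Egr2flfl cells, and 11.1 and 13.8 against 76.3 and 38.3 in LyzMCreEgr2flfl cells. The rise was 2.75 ± 0.54 in the former (limma adjusted p = 0.00123) and 2.04 ± 0.54 in the latter (0.0461), and the genotypes did not pass the test at 24 h (-0.87 ± 0.54, adjusted p = 0.411). The call in LyzMCreEgr2flfl cells was lost without any 1 of the 8 libraries (0.0646 to 0.727), and that in Egr2flfl cells without the first treated or second basal library (0.114 and 0.117). A further STAT6 call in Egr2flfl cells, at +23.3 kb, rested on 1 basal read (ratio 14.9, counting interval 2.32 to 626.8) and was lost without any 1 of its 4 libraries (0.0514 to 0.294). STAT6 calls came to 2 of 6 sites against 11.8%, and to 1 of 6 against 1.2% in LyzMCreEgr2flfl cells.

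CEBPb was called at Cdh1 +3.4 kb in Egr2flfl cells, against 2.1% of all sites, with 0.0 and 0.0 tags at basal and 15.1 and 15.4 at 24 h, at least 14.04-fold higher by a floor of 3 reads over the group. The call was lost without any 1 of these 4 libraries (adjusted p of 0.106 to 0.333). PU1 was called at Cdh1 -26.2 kb in both genotypes, from 27.2 and 25.6 to 50.5 and 61.8 (1.06 ± 0.21, limma adjusted p = 0.00745, against 8.19%), and from 35.7 and 35.8 to 63.5 and 72.2 (0.90 ± 0.21, 0.0305, against 2.8%). The former was lost without any 1 of the 4 Egr2flfl libraries (0.0578 to 0.148), and the latter without any 1 of the 8 libraries (0.0544 to 0.218). PPARg at Cdh1 +9.0 kb held 15.5 and 4.0, then 143.4 and 260.0, in Egr2flfl cells, and 42.6 and 46.4, then 44.5 and 99.5, in LyzMCreEgr2flfl cells. limma called 0 of the 6 PPARg sites in any contrast (3 at an unadjusted p under 0.05 for IL-4 in Egr2flfl cells; edgeR 1, DESeq2 0), with an adjusted p of 0.0797 for that rise and 0.308 for the interaction. Pol II, with 1 library a group and so no test, held 3.3 then 11.9 tags there in Egr2flfl cells and 0.7 then 1.3 in LyzMCreEgr2flfl cells.

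**Figure D5:**
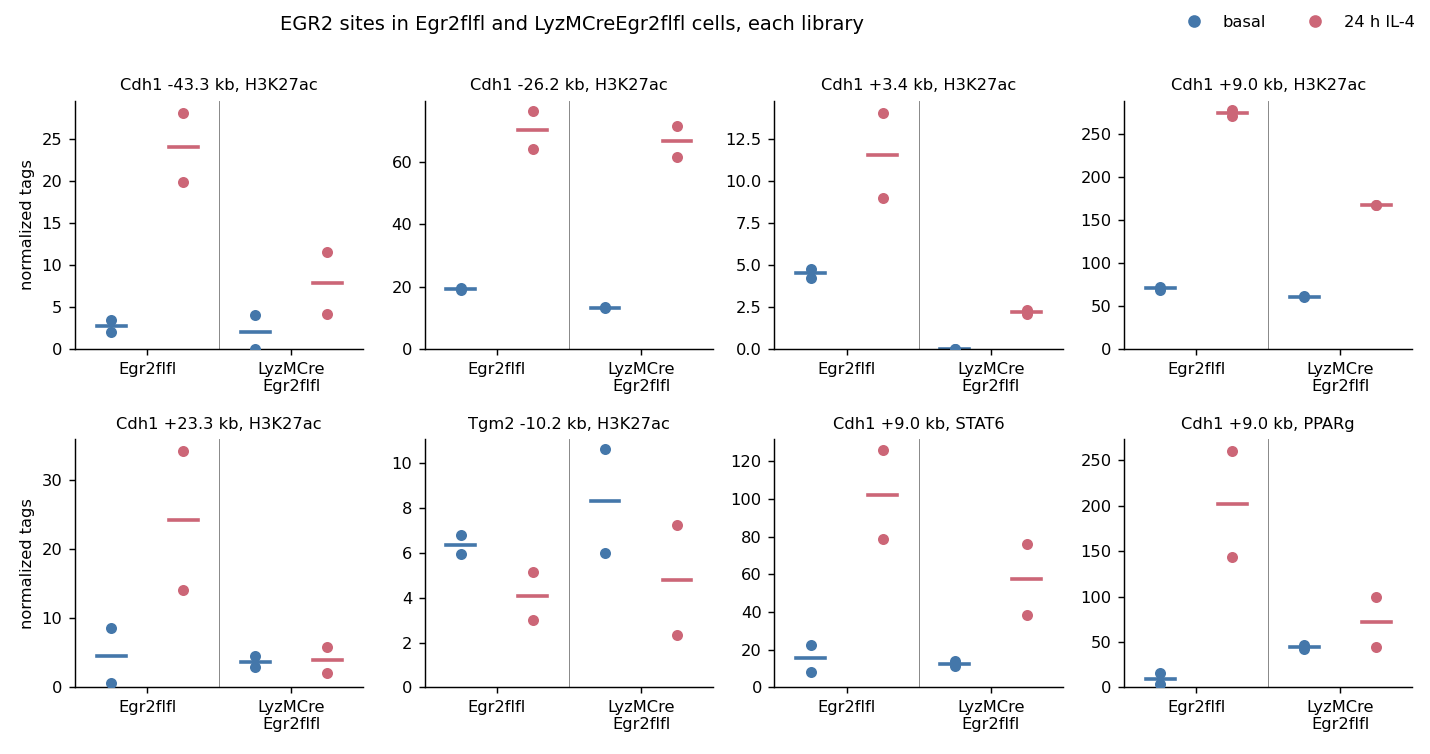
Normalized tags (vertical axes, each from 0) at EGR2 sites in Egr2flfl and LyzMCreEgr2flfl cells (horizontal axis); points are libraries, blue basal and red 24 h IL-4, and bars are means of 2. At Cdh1 +9.0 kb H3K27ac reaches 277.4 and 270.4 in treated Egr2flfl and 167.3 and 167.2 in treated LyzMCreEgr2flfl cells, while at Cdh1 -26.2 kb both genotypes reach similar values.

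The partners of both genes were read at their promoters from fixed lists. Of 13 cadherin and catenin genes, 6 had a promoter region with H3K27ac values in each strain, and none was called. Their median log2 difference was -0.73 in C57, -0.37 in BALB, -0.30 in NOD, -0.20 in PWK and -0.05 in SPRET, against -0.52, -0.30, -0.27, -0.21 and -0.15 for all promoter regions. Of 9 transglutaminase genes 2 or 3 had a region, with medians of 0.25, 0.38, -0.25, -0.56 and 0.19. Of 12 genes of macrophage fusion 7 to 9 had one, with medians of -0.64, -0.32, -0.09, -0.29 and 0.15, and 0 calls by limma. Ocstamp, which encodes a membrane protein needed for that fusion, was named after its values were seen and held 4.50 tags at basal and 21.3 at 24 h in C57 (limma adjusted p = 0.147). Of the other fusion genes in C57, Cd81, Tyrobp, Sirpa, Mmp9 and Trem2 were lower (log2 differences from -1.38 to -0.45), and Cd9 and Ccl2 higher. The cell type label was checked the same way. At least 7 of 8 macrophage marker promoters had a region in each strain, with a summed level of 1535 to 4894 tags over 20 libraries. Of 8 epithelial markers, 0 had one. A missing region is not a measured absence, since the macrophage marker Csf1r also had none in SPRET. The median log2 difference of the macrophage markers was -1.15 in C57, -0.89 in BALB, -0.72 in NOD, -0.60 in PWK and -0.41 in SPRET, below that of all promoter regions in each strain. Fcgr1, which encodes an Fc gamma receptor, went from a mean of 155.7 tags at basal to 24.5 at 24 h in PWK (log2 difference -2.53, limma adjusted p = 0.0477), the only call among the lists. The part of these shifts in the results at Cdh1 and Tgm2 was not tested. T cell, B cell and fibroblast markers had at most 1 region each, at up to 9.70 tags.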

How the data were processed

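ChIP-seq values of 155 libraries in 9 tables were used, out of 267 samples in the series. For each strain the authors used its own genome in Bowtie2, moved the alignments to mm10 coordinates and counted tags in HOMER. The deposited signal values are tags normalized to a total of 10000000 reads, in regions of 1000 bp for histone marks and Pol II and 300 bp for factors. They gave back whole reads within 0.1 of a read. The deposited peak lists hold the authors' reproducible peaks per group, with a score in 2 formats that was not compared between lists. A total of 4 columns that matched no sample were left out.

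Groups were taken from the labels. For each table, limma 3.58.1 (lmFit, eBayes with trend) was fitted to log2(tags + 1) over all regions, with Benjamini-Hochberg adjustment over the table and a threshold of 0.05. A fold change on this scale understates that of low regions. The count tests of edgeR 4.0.16 and DESeq2 1.42.0 on the recovered reads, a pseudocount of 5, a filter on low values, median-ratio scaling, the replicate block and omission of each library were alternatives. The fold rule asked for 2.5-fold between means plus 1 and at least 16 tags (8 for Pol II) in either group. A group with 0 reads was set to a floor of 3 reads, and ratios over 1 to 3 reads have exact 95% intervals, both covering counting error only. The fits were also run on simulated data with 200 changed regions of at least 16 tags. Those data had no deviation shared between libraries, so they cover neither low regions nor the correlated same-numbered libraries.

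Elements were named if they were promoters, had the highest mean H3K27ac of a gene, passed the fold rule in at least 2 strain tables or in the time course, or passed limma in any mark. All EGR2 sites were included and summarised beyond the few described. The members and lists were chosen with earlier results of these data known. Replicate numbers paired the Pol II libraries of C57, PWK and SPRET, where deviations of same-numbered libraries correlated by 0.184 to 0.614 over 3 numbers. Elsewhere only 2 numbers were shared, and the libraries were not treated as pairs. No pair of replicates was identical, and the chi-square per degree of freedom of 99 pairs was 1.46 to 44.0. Sequences were read from a GRCm38 genome in which 32851 of 32851 RefSeq promoters were identical. R 4.3.3 and Python 3.11.15 were used.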

Additional observations from a re-analysis of the deposited data

Results flagged for a closer look

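H3K27ac at Tgm2 -28.2 kb moved in opposite directions between SPRET on one side and C57 and BALB on the other. In SPRET both 24 h libraries lay above both basal ones, with means of 77.8 tags at basal and 105.1 at 24 h. In C57 both lay below, with 182.3 and 109.2, and in BALB likewise, with 184.1 and 114.7. In NOD and PWK the groups overlapped. Each separation was common among all regions, at 18.2% higher in SPRET and 34.8% and 28.8% lower in C57 and BALB. The log2 change in C57 was -0.73. The difference between strains was not tested, since each strain had its own regions and its own fit. Of 17 groups of 4 libraries examined for an outlying library, 0 held one.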

How the results depend on the processing

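With 2 libraries in most groups, single calls depended on the setting. For single named elements, 356 comparisons of a call with an alternative kept their direction and side of the threshold, 197 kept the direction but lost the call, and 0 reversed. The cause was not tested. The counts in the rest of this paragraph are of these loci alone, without the share of all regions called under each alternative. H3K27ac calls by strain numbered 4, and 14 in DESeq2 (2 to 6 without 1 library). Pol II calls by strain numbered 4, and 2 with a filter on low values (0 to 5). H3K4me2 and H3K4me3 calls numbered 1, and 2 with median-ratio scaling (0 to 15). H3K27ac time-course calls numbered 17, 10 with a pseudocount of 5 and 9 with the filter (1 to 23), and Pol II ones 1, with 0 under the filter and in DESeq2 (0 to 3). EGR2 time-course calls numbered 0 (0 to 2). Genotype calls numbered 15, 8 with median-ratio scaling and 6 in DESeq2 (10 to 17).

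Fold-rule counts of higher Cdh1 H3K27ac regions over the strains were 23, and 13 with a minimum of 32 tags (19 to 26), and in the time course 15, and 28 without a minimum (10 to 18). Those of Tgm2 were 8, with 3 at 32 tags and 3 within 25 kb (7 to 10). Lower Tgm2 regions in the time course were 4, with 9 at 2-fold and 1 with median-ratio scaling (4 to 10). Within 25 kb the factor peak sites were 16 instead of 31 at Cdh1 and 23 instead of 40 at Tgm2.

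The replicate number was also fitted as a block. Outside Pol II of C57, PWK and SPRET only 2 numbers were shared, which does not settle whether the libraries were paired. Calls then numbered 37 for H3K27ac, 15 for Pol II and 17 for H3K4me2 and H3K4me3 by strain. In the time course they numbered 30 for H3K27ac and 3 for Pol II. The share of all regions rose too, to 5.96% for Pol II in PWK and 3.56% in SPRET. It is not given for the other counts, which therefore have no background beside them. Deviations of same-numbered histone libraries correlated by 0.200 to 0.717. Over all sites, median-ratio scaling changed H3K27ac calls for IL-4 from 1196 higher and 119 lower to 640 and 503 in Egr2flfl cells, from 673 and 191 to 576 and 339 in LyzMCreEgr2flfl cells, and at 1 h in C57 from 1065 and 6515 to 1577 and 643.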
